A study of Homo sapiens with 18 samples.

Results

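The 7 genes described here encode the cyclin-dependent kinase (CDK) inhibitors of the CIP/KIP family (CDKN1A, CDKN1B and CDKN1C) and of the INK4 family (CDKN2A, CDKN2B, CDKN2C and CDKN2D). They were found by mapping the gene identifiers of both count tables to symbols, and all 7 were among the 58825 genes of the tables. CIP/KIP proteins bind complexes of cyclins with several CDKs and restrain their kinase activity, whereas INK4 proteins bind CDK4 and CDK6 and keep D-type cyclins away from them. Both families hold the RB protein in the state in which it represses E2F target genes and entry into S phase. CDKN2A also encodes ARF, an unrelated protein made from a first exon of its own.

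OVCAR-3 is an established cell line of high-grade serous ovarian cancer (HGSC). The cells were grown in stripped medium with the vehicle DMSO, with 1 µM i-BET858 or with 1 µM i-BET151, 2 inhibitors of the bromodomains of BET proteins, and RNA was taken after 4 or 24 h. Each of the 6 groups had 3 biological replicates, which gives 18 libraries of poly-A enriched RNA from a single cell line and a single dose. The 3 DMSO libraries of a time point served as controls for both inhibitors, so that the 2 comparisons of a time point share them.

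The libraries held 27323969 to 46299994 counts each (median 32267434). A gene without a count lay under 3 counts, a floor for counting error only. Relative to the total count of a library, this floor was 0.0648 to 0.110 CPM. All other CPM values are a gene's counts relative to the effective size of its library. Libraries of replicate 3 stood apart in every group, with 17817 to 20642 genes detected against 23674 to 24947 in replicates 1 and 2. Calls of the 7 genes that changed without replicate 3 are given with and without it. All 9 markers of serous ovarian epithelium looked up were detected in all 18 libraries (PAX8, 387 to 612 CPM). PTPRC, the defining leukocyte marker, reached at most 0.556 CPM, CD3E 0.0364 CPM, and the endothelial markers PECAM1 and CDH5 0.871 and 0.398 CPM, whereas COL1A1, a collagen gene of fibroblasts, lay at 21.1 to 46.7 CPM with DCN and LUM at 0 in 14 and 12 of the 18 libraries. The summed level of the 4 endothelial markers was 9.23 to 15.9 CPM with i-BET858 at 4 h against 3.38 to 6.63 with DMSO, of which KDR made up to 11.6 CPM, and 2.17 to 3.45 CPM against 3.67 to 7.04 at 24 h. The summed level of the 9 epithelial markers also lay apart from DMSO, higher with i-BET858 at 4 h (11213 to 11835 CPM against 8434 to 9902) and lower at 24 h with i-BET858 (6612 to 7075) and i-BET151 (6645 to 7230, against 8599.8 to 10086 with DMSO), the directions in which CDKN2A was called. KRT8 weighed most in these sums, at 3740 to 7369 CPM over the 18 libraries. With i-BET151 at 24 h the sums of the 5 leukocyte markers (0.0582 to 0.806 CPM against 1.39 to 3.09) and the 5 fibroblast markers (23.3 to 27.6 against 27.8 to 35) lay below DMSO, and the other sums overlapped it. The part of these transcripts in the results was not tested.

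Expression of a gene was tested with edgeR's quasi-likelihood test, and a gene was called changed at a Benjamini-Hochberg adjusted p under 0.05 over all genes tested. All 7 genes passed the filter on low counts in all 9 comparisons. Values per library are in CPM and are given in the order of replicates 1, 2 and 3. CPM were scaled over all 18 libraries together. In bulk RNA, a change in every cell and a change in the share of cells that express a gene cannot be told apart.

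With i-BET858 at 4 h, 5 of the 7 genes were called, all higher, beside a background of 30.8% of all tested genes called (14.5% higher). With i-BET151 at 4 h, 3 of 7 were called, all higher, beside 16.2% (7.81% higher). At 24 h, 5 of 7 were called with i-BET858 beside 41.7% (20.5% higher and 21.3% lower), and 5 of 7 with i-BET151 beside 33.8% (17.2% higher and 16.6% lower), in both cases 4 higher and CDKN2A lower. CDKN1A, CDKN2B and CDKN2D were called higher in all 4 comparisons with DMSO, and CDKN1B and CDKN2C in none. With a fold change of at least 2 as a further condition, the counts were 4 and 3 at 4 h (beside 14.1% and 7.1%) and 3 and 2 at 24 h (beside 18.8% and 13.7%), for i-BET858 and i-BET151 respectively. Without replicate 3 the counts were 5 and 4 at 4 h, beside 41.9% and 25.9%, and 6 and 7 at 24 h, beside 60.7% and 54.2%.

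**Figure D1:**
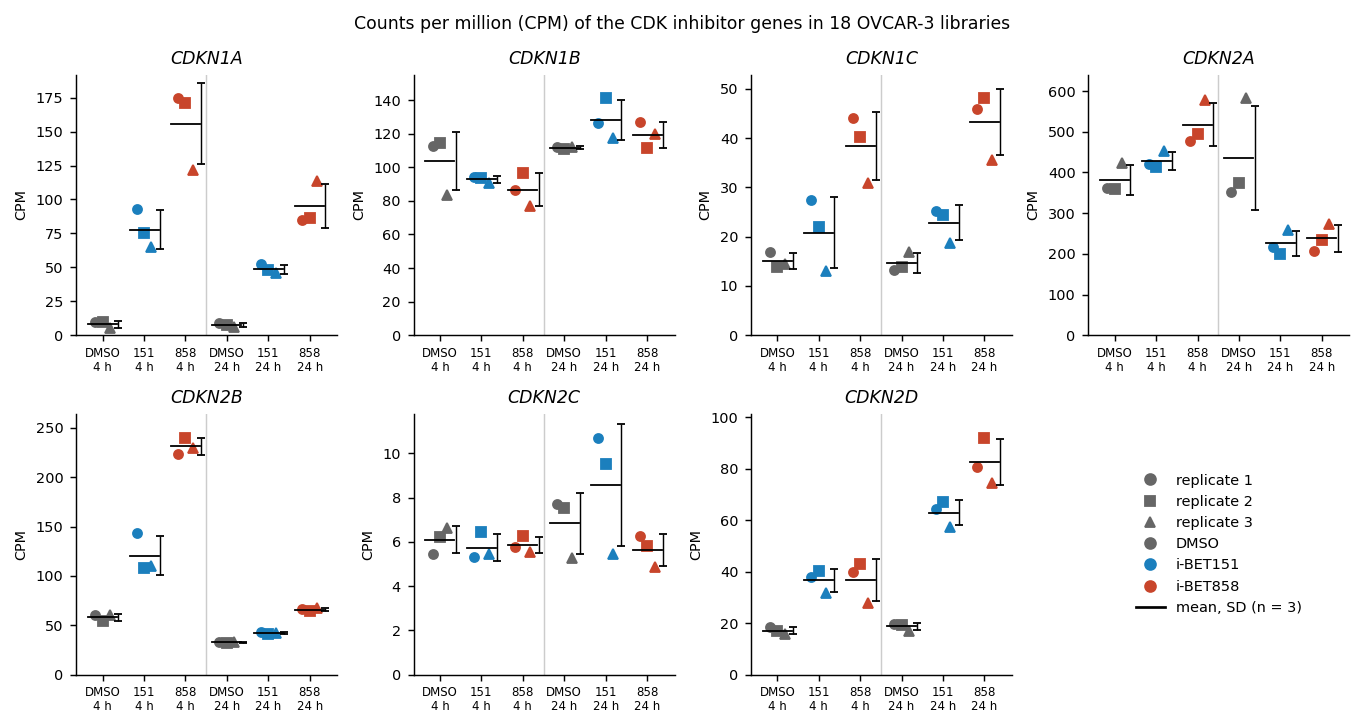
CPM of each CDK inhibitor gene in each library by group (inhibitors are named by their digits on the axis), with symbols for the replicate, a line for the mean and a bar for the SD of 3 libraries. The treated libraries of CDKN1A, CDKN2B and CDKN2D lay above every DMSO library of their time point, and those of CDKN2A lay below every DMSO library at 24 h.

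CDKN1A encodes p21, a CIP/KIP inhibitor of several cyclin and CDK complexes. The gene (ENSG00000124762.13) lies at chr6:36676460-36687337 on the plus strand of GRCh38. Its level was 9.55, 9.74 and 4.98 CPM in the DMSO libraries of 4 h, 93.3, 75.4 and 64.7 with i-BET151 and 175, 171 and 121 with i-BET858. At 24 h it was 9.3, 7.41 and 6.15 with DMSO, 52.5, 47.9 and 46 with i-BET151 and 85.2, 86.3 and 114 with i-BET858. No treated library overlapped a DMSO library, and at each time point every i-BET858 library lay above every i-BET151 library. CDKN1A rose 19.2-fold with i-BET858 at 4 h (log2 fold change 4.27, SE 0.27, adjusted p = 1.68e-06) and 9.56-fold with i-BET151 (log2 fold change 3.26, SE 0.26, adjusted p = 2.31e-05). At 24 h the rises were 12.2-fold (log2 fold change 3.60, SE 0.17, adjusted p = 5.54e-07) and 6.3-fold (log2 fold change 2.66, SE 0.17, adjusted p = 3.34e-06). Of the 7 genes, CDKN1A had the largest log2 fold change in each of the 4 comparisons. Among all genes tested it stood at place 83 of 17192 by fold change with i-BET858 at 4 h and at place 85 of 17157 at 24 h.

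CDKN1B encodes p27, an inhibitor of cyclin E and cyclin A complexes with CDK2 whose amount is set largely by protein degradation. The gene (ENSG00000111276.11) lies at chr12:12685498-12722369 on the plus strand. The level with DMSO at 4 h was 113, 114 and 83.6 CPM, against 94.4, 93.6 and 90.4 with i-BET151 and 86.3, 96.6 and 76.9 with i-BET858. After 24 h the level was 112, 111 and 112 with DMSO, 126, 141 and 118 with i-BET151 and 127, 112 and 119.8 with i-BET858. The groups overlapped except with i-BET151 at 24 h, where the 3 treated libraries lay above the 3 DMSO libraries. The log2 fold changes at 4 h were −0.25 with i-BET858 (95% confidence interval −0.57 to 0.06, adjusted p = 0.209) and −0.16 with i-BET151 (−0.47 to 0.15, adjusted p = 0.505). At 24 h they were 0.06 (−0.15 to 0.27, adjusted p = 0.673) and 0.18 (−0.03 to 0.39, adjusted p = 0.183). Over the 4 comparisons the intervals reached from −0.57 to 0.39. Without replicate 3, CDKN1B was called with i-BET151 at 24 h, at a log2 fold change of 0.22 (adjusted p = 0.0402), and with 1 library left out it was 0.11 to 0.23 and not called.

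CDKN1C encodes p57, the CIP/KIP inhibitor of an imprinted region of chromosome 11 (ENSG00000129757.13, chr11:2883213-2885775, minus strand). Its level was 16.8, 13.9 and 14.5 CPM with DMSO at 4 h, 27.4, 21.9 and 13.1 with i-BET151 and 44.2, 40.2 and 30.8 with i-BET858. The 24 h libraries stood at 13.1, 13.8 and 16.9 with DMSO, 25.3, 24.4 and 18.7 with i-BET151 and 45.9, 48.1 and 35.5 with i-BET858. The i-BET858 libraries lay above all others at both times, whereas the i-BET151 library of replicate 3 at 4 h lay below the DMSO libraries. CDKN1C rose 2.56-fold with i-BET858 at 4 h (log2 fold change 1.35, SE 0.24, adjusted p = 0.00145) and 2.87-fold at 24 h (log2 fold change 1.52, SE 0.17, adjusted p = 5.03e-05). With i-BET151 the log2 fold change at 4 h was 0.46 and was not called (−0.07 to 0.99, adjusted p = 0.234), but without replicate 3 it was 0.68 (adjusted p = 0.0116). Leaving out 1 library moved it from 0.21 without i-BET151 replicate 1 (adjusted p = 0.66) to 0.71 without i-BET151 replicate 3 (adjusted p = 0.0273). At 24 h i-BET151 raised it 1.53-fold (log2 fold change 0.62, SE 0.17, adjusted p = 0.0157). That call was lost when replicate 1 or 2 of either group was left out (adjusted p = 0.0547 to 0.0639).

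CDKN2A encodes p16, the INK4 inhibitor that is lost or silenced in many tumours and abundant in many HGSC, and ARF. The gene (ENSG00000147889.17, chr9:21967752-21995301, minus strand) has separate first exons for the 2 proteins, and the counts pool their transcripts. Its level at 4 h was 362, 358 and 423 CPM with DMSO, 420.4, 413 and 454 with i-BET151 and 478, 495 and 577 with i-BET858. At 24 h it was 352, 374 and 582 with DMSO, 218, 200.3 and 259 with i-BET151 and 208, 233 and 273 with i-BET858. The i-BET858 libraries lay above the DMSO libraries at 4 h, and both inhibitors lay below them at 24 h, where the DMSO library of replicate 3 was the highest of the 18. CDKN2A rose 1.36-fold with i-BET858 at 4 h (log2 fold change 0.44, SE 0.11, adjusted p = 0.00989) and was not called with i-BET151 (0.17, −0.07 to 0.41, adjusted p = 0.353). At 24 h it fell 1.89-fold with i-BET858 (log2 fold change −0.92, SE 0.20, adjusted p = 0.00361) and 1.96-fold with i-BET151 (log2 fold change −0.97, SE 0.20, adjusted p = 0.00341). Without the DMSO library of replicate 3 at 24 h, the log2 fold changes were −0.62 and −0.68 and both calls held. Exons of CDKN2A overlap those of the antisense RNA CDKN2B-AS1 over 593 bases (15.3% of the exon length). The strand setting of the counting is not given in the sources used here, so that reads of the 2 genes cannot be told apart there. CDKN2B-AS1 itself had 42 to 137 counts per library.

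CDKN2B encodes p15, the INK4 inhibitor that TGFβ signalling induces, and its gene (ENSG00000147883.11, chr9:22002903-22009305, minus strand) lies 7602 bases from CDKN2A. The level at 4 h was 60.5, 54 and 59.9 CPM with DMSO, 143, 108 and 110.0 with i-BET151 and 224, 240.2 and 229 with i-BET858. By 24 h it lay at 32.9, 32.4 and 32.6 with DMSO, 43.4, 40.8 and 42.3 with i-BET151 and 66.5, 64 and 67.1 with i-BET858. The 3 groups of each time point did not overlap, in the order DMSO, i-BET151 and i-BET858, and the SD among the DMSO libraries of 24 h was 0.258 CPM. CDKN2B rose 3.99-fold with i-BET858 at 4 h (log2 fold change 1.99, SE 0.13, adjusted p = 2.07e-06) and 2.07-fold with i-BET151 (log2 fold change 1.05, SE 0.13, adjusted p = 3.22e-04). At 24 h it rose 1.96-fold (log2 fold change 0.97, SE 0.09, adjusted p = 1.19e-05) and 1.27-fold (log2 fold change 0.35, SE 0.09, adjusted p = 0.0102). Without the filter on low counts, the i-BET151 call at 24 h was lost (adjusted p = 0.0666). CDKN2B was also the 1 gene of the 7 that differed between the DMSO libraries of 24 and 4 h, as described with the time comparison.

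CDKN2C encodes p18 (ENSG00000123080.11, chr1:50960745-50974634, plus strand) and was the least abundant of the 7 genes per length. Its level was 5.44, 6.24 and 6.61 CPM with DMSO at 4 h, 5.31, 6.44 and 5.45 with i-BET151 and 5.77, 6.27 and 5.54 with i-BET858. After 24 h it stood at 7.73, 7.54 and 5.26 with DMSO, 10.7, 9.52 and 5.44 with i-BET151 and 6.27, 5.81 and 4.86 with i-BET858. All groups overlapped the DMSO libraries of their time point, and replicate 3 was the lowest library of every group at 24 h. The log2 fold changes at 4 h were −0.05 with i-BET858 (−0.48 to 0.37, adjusted p = 0.872) and −0.09 with i-BET151 (−0.52 to 0.34, adjusted p = 0.809). At 24 h they were −0.31 (−0.89 to 0.26, adjusted p = 0.367) and 0.30 (−0.27 to 0.87, adjusted p = 0.409). Without replicate 3 both 24 h values were called, in opposite directions, i-BET858 giving −0.37 (adjusted p = 0.0334) and i-BET151 giving 0.37 (adjusted p = 0.0315). With 1 library left out they were −0.44 to −0.20 and 0.10 to 0.53, and neither was called. Exons of CDKN2C overlap a gene on the other strand over 617 bases (20.4% of the exon length), which was not analysed here.

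CDKN2D encodes p19, the INK4 protein of chromosome 19 (ENSG00000129355.6, chr19:10566460-10569059, minus strand). The level with DMSO was 18.5, 17 and 15.7 CPM at 4 h, against 37.8, 40.4 and 31.5 with i-BET151 and 39.8, 42.9 and 27.7 with i-BET858. The later libraries held 19.6, 19.4 and 17.1 with DMSO, 64.4, 66.9 and 57.6 with i-BET151 and 80.9, 92.2 and 74.5 with i-BET858. Treated and DMSO libraries did not overlap at either time, the inhibitors overlapped each other at 4 h, and at 24 h the i-BET858 libraries were all above the i-BET151 libraries. CDKN2D rose 2.16-fold with i-BET858 at 4 h (log2 fold change 1.11, SE 0.18, adjusted p = 7.21e-04) and 2.14-fold with i-BET151 (log2 fold change 1.09, SE 0.18, adjusted p = 0.00184). At 24 h the rises were 4.29-fold (log2 fold change 2.10, SE 0.11, adjusted p = 7.10e-07) and 3.31-fold (log2 fold change 1.73, SE 0.11, adjusted p = 3.79e-06).

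**Figure D2:**
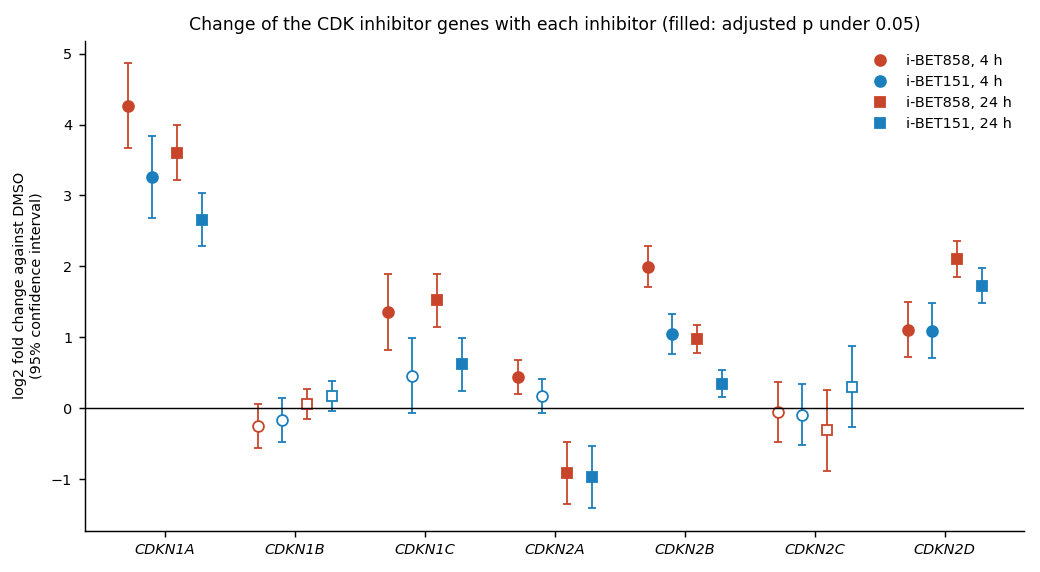
Log2 fold change of each gene from edgeR against the time-matched DMSO libraries, with 95% confidence intervals that are not adjusted for the number of genes; filled symbols have an adjusted p under 0.05. CDKN1A had the largest changes, CDKN2A changed sign between 4 and 24 h with i-BET858, and no symbol of CDKN1B or CDKN2C is filled.

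To set the promoters of genes called higher throughout beside one that was never called, the bases before the start sites of CDKN1A, CDKN2B and CDKN2D (higher in all 4 comparisons with DMSO) and of CDKN1B (called in none of them) are given from RefSeq (GRCh38.p14), 5′ to 3′ on the strand of the gene. Of the 7 genes, 6 were in the promoter table, with 9 start sites in all, and CDKN1C was not matched. Searched were, on both strands, the GC box GGGCGG, which SP1-like factors bind, the E-box CACGTG of MYC-like factors, the TATA box spelled TATAAA and the CCAAT box spelled CCAAT. Capitals mark the matches. Up to 250 bases before each start are printed, and bases of an annotated exon are left out.
CDKN1A, chr6:36678464-36678709, plus strand: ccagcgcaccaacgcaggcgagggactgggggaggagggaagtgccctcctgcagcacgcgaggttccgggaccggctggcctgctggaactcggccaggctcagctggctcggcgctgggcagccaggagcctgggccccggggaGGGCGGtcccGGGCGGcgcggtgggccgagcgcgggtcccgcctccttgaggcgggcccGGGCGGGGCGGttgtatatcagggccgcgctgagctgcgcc
CDKN2B, chr9:22009306-22009555, minus strand: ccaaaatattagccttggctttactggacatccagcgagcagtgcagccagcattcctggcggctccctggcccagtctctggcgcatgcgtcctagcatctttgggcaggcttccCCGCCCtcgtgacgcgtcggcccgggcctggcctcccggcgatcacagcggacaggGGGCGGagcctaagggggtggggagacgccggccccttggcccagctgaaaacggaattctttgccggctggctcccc
CDKN2D, chr19:10569060-10569229, minus strand: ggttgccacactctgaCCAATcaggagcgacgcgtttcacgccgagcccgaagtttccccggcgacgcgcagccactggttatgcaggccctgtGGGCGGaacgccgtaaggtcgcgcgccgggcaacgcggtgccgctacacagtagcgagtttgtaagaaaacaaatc
CDKN1B, chr12:12717118-12717367, plus strand: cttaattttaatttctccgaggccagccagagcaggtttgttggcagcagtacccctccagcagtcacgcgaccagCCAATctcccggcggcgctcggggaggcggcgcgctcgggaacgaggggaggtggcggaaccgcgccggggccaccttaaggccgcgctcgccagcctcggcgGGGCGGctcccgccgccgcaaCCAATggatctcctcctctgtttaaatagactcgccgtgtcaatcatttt

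Within the 250 bases, the window of CDKN1A held 4 GC boxes, of which 2 share a base, those of CDKN2B and CDKN2D held 2 each and that of CDKN1B held 1. The 3 windows of CDKN2C, also never called against DMSO, held 0, 5 and 1, the 5 in a window that is annotated exon throughout. The second GC box of CDKN2D lies in the 80 bases that were left out as exon. CCAAT boxes were found 2 times in CDKN1B, 1 time in CDKN2D and not in CDKN1A or CDKN2B. No TATA box by these letters was found in any of the 9 windows, and the E-box letters were found only in 2 of the 3 windows of CDKN2C. Of the 2 start sites of CDKN2A, the window before the distal one, used by ARF, held none of the 4 motifs and that before the proximal one, used by p16, held 1 GC box. Over all 35116 windows of this length, 42.6% held a GC box, 32% a CCAAT box, 10.7% a TATA box and 6.34% an E-box, and the GC box occurred in windows of called and of uncalled genes alike. These matches describe letters, and binding was not measured.

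Levels were compared between genes per length, as CPM per kb of the union of annotated exons. With DMSO at 4 h, CDKN2A stood at 98.1 ± 9.25 CPM per kb (SD, n = 3), followed by CDKN2B at 14.5 ± 0.891, CDKN2D at 11.4 ± 0.936, CDKN1B at 11.2 ± 1.87, CDKN1C at 6.07 ± 0.622, CDKN1A at 2.7 ± 0.899 and CDKN2C at 2.02 ± 0.199. The ranges of CDKN2D and CDKN1B overlapped, as did those of CDKN1A and CDKN2C, and the other neighbours in this order lay apart. CDKN1A moved from place 6 with DMSO to place 3 with either inhibitor at both times by this length. With i-BET858 at 4 h it reached 52 ± 9.93 CPM per kb, next to CDKN2B at 57.8 ± 2.1, and their ranges overlapped. With i-BET858 at 24 h CDKN2A (61.2 ± 8.38) and CDKN2D (54.8 ± 5.96) overlapped at the top of the order. CDKN2A was first and CDKN2C last in all 6 groups, also with the length of the longest transcript, under which CDKN2A no longer overlapped CDKN2D and CDKN1B moved up to place 2 with DMSO.

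The summed level of the 7 genes was 146 ± 6.4 CPM per kb with DMSO at 4 h, 211 ± 10.7 with i-BET151 and 294 ± 7.28 with i-BET858. The sums of 24 h were 156 ± 31.7, 153 ± 2.11 and 196 ± 8.72. At 4 h the sums of the 3 groups did not overlap, whereas at 24 h both inhibitors overlapped DMSO. The DMSO sums of 24 h ranged from 135 to 192, against 150 to 155 with i-BET151 and 187 to 203 with i-BET858. This overlap came from the highest DMSO sum alone, that of replicate 3. CDKN2A made up 71.3% ± 5.86 of the sum with DMSO at 24 h, 38.1% ± 4.92 with i-BET151 and 31.1% ± 3.04 with i-BET858. The share of CDKN2D at 24 h was 8.28% ± 2.06 with DMSO, 27.4% ± 2.29 with i-BET151 and 28% ± 3.28 with i-BET858. These sums and shares depend on the exon length taken for each gene, and so does the order of the sums at 24 h. By the longest transcript, CDKN2A alone stood at 414 ± 121 CPM per kb with DMSO at 24 h. With i-BET151 it was then 215 ± 28.8 and with i-BET858 226 ± 31. Sums and shares are given by the union of exons only.

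**Figure D3:**
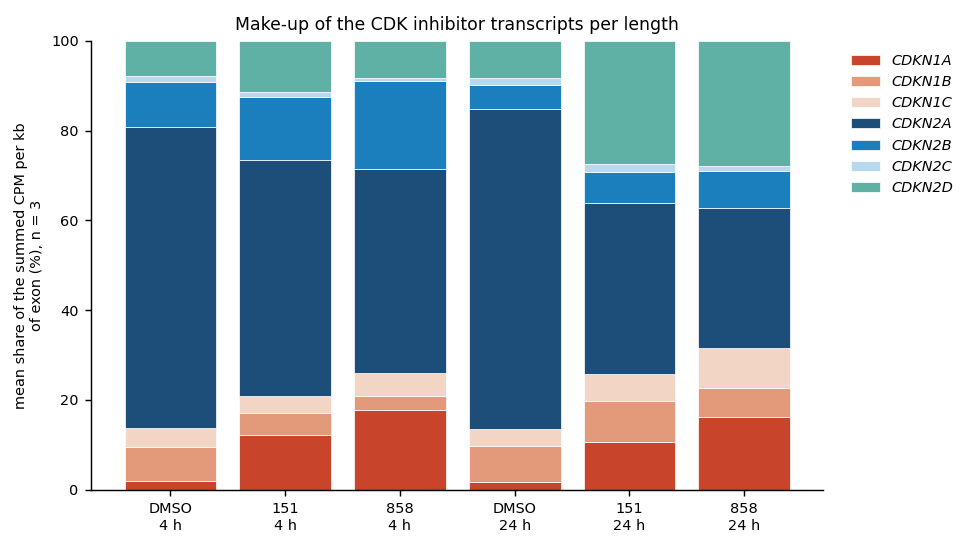
Mean share of each gene in the summed CPM per kb of exon of the 7 genes, in % and over 3 libraries, by group. By the union of exons, CDKN2A holds 71.3% with DMSO at 24 h and 31.1% with i-BET858, where CDKN2D holds 28%. These shares depend on the length taken for each gene.

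The inhibitors were compared with each other at the same dose of 1 µM and the same time, in 1 pair of compounds, 2 time points and 14 differences over the 7 genes. At 4 h CDKN2B was called, higher with i-BET858 by 0.95 on the log2 scale (1.93-fold, 95% confidence interval 0.67 to 1.23, adjusted p = 0.0206), 1 of 7 genes beside a background of 0.971% of all tested genes (0.413% higher with i-BET858). At 24 h CDKN1A (0.95, 0.60 to 1.29, adjusted p = 0.0485) and CDKN2B (0.63, 0.44 to 0.82, adjusted p = 0.0376) were called, 2 of 7 beside 0.21% (0.0933% higher), both higher with i-BET858. In these 3 differences all 9 pairs of an i-BET858 and an i-BET151 library had the same direction. The calls were close to the threshold. That of CDKN2B at 4 h was lost without any 1 of the i-BET858 libraries or without i-BET151 replicate 2 (adjusted p = 0.0505 to 0.122). Those of 24 h were each lost without any 1 of the 9 libraries but DMSO replicate 3, with adjusted p of up to 0.215 for CDKN1A and 0.169 for CDKN2B.

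CDKN1A at 4 h differed by 1.01 (0.48 to 1.53, adjusted p = 0.0756) and CDKN1C by 0.89 at 4 h (0.37 to 1.42, adjusted p = 0.119) and 0.90 at 24 h (0.54 to 1.27, adjusted p = 0.0651), all 9 of 9 pairs higher with i-BET858. None of the 3 was called, and with the replicate number as a block all 3 were, at 1.00 (adjusted p = 2.87e-04), 0.93 (adjusted p = 0.0017) and 0.90 (adjusted p = 0.00771). The block also called CDKN2A at 4 h (0.27, adjusted p = 0.0177, against 0.326 without it) and CDKN2D at 24 h (0.37, adjusted p = 0.0296, against 0.203). With the block, 4 of 7 genes were thus called at each time point, beside 9.63% and 4.37% of all tested genes in these fits. Without replicate 3, 3 were called at 4 h beside 2.29% and 5 at 24 h beside 7.29%. Those gained were CDKN1A (1.04, adjusted p = 0.00812) and CDKN1C (0.78, adjusted p = 0.033) at 4 h, and CDKN1C (0.93, adjusted p = 3.49e-04), CDKN2D (0.41, adjusted p = 0.0133) and CDKN2C at 24 h. With 1 library left out, the adjusted p was 0.0397 to 0.253 for CDKN1A at 4 h, called without DMSO replicate 3, 0.0992 to 0.304 and 0.0369 to 0.26 for CDKN1C at 4 and 24 h, called at 24 h without DMSO replicate 3, and 0.124 to 0.537 for CDKN2D at 24 h. CDKN2D at 4 h differed by 0.01 (−0.37 to 0.40), CDKN2A at 24 h by 0.06 (−0.38 to 0.49), and CDKN1B by −0.09 (−0.40 to 0.22) and −0.12 (−0.33 to 0.09), which does not show that the compounds act alike on them. For CDKN2C the difference was 0.04 at 4 h (−0.39 to 0.47) and −0.62 at 24 h (−1.19 to −0.05, adjusted p = 0.394), and without replicate 3 the latter was called (−0.74, adjusted p = 0.00754), while with 1 library left out it was −0.84 to −0.40 and not called.

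**Figure D4:**
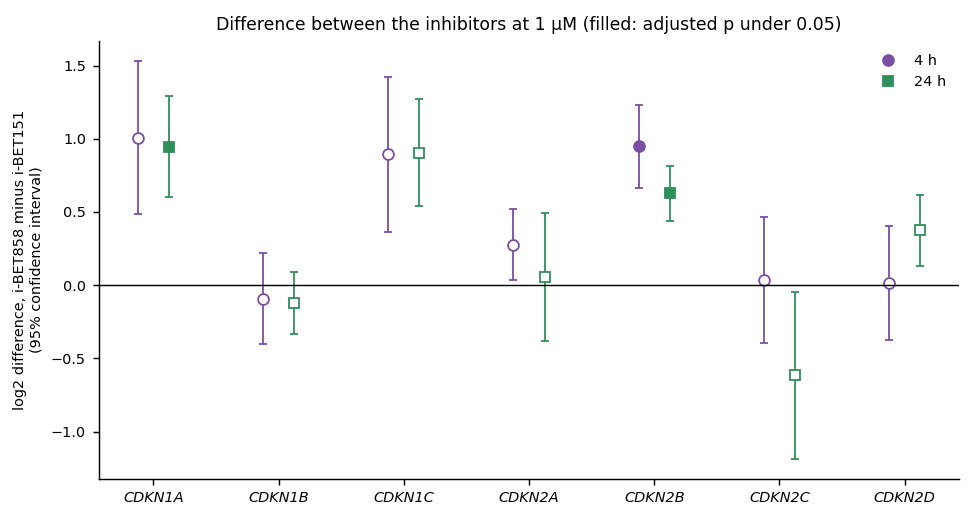
Log2 difference of each gene between i-BET858 and i-BET151 at 1 µM (above 0, higher with i-BET858), with unadjusted 95% confidence intervals; filled symbols have an adjusted p under 0.05 in the fit without a block. CDKN1A, CDKN1C and CDKN2B lie above 0 at both times, and CDKN2C at 24 h lies below it.

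Whether an effect differed between 4 and 24 h was tested as the interaction of inhibitor and time over all 18 libraries. For i-BET858, 3 of 7 genes were called (CDKN2A, CDKN2B and CDKN2D) beside 27.2% of all tested genes, and for i-BET151 the same 3 beside 13.8%. The i-BET858 effect on CDKN2A changed by −1.31 on the log2 scale from 4 to 24 h (SE 0.23, adjusted p = 3.70e-04), and the i-BET151 effect by −1.12 (SE 0.23, adjusted p = 0.0035). On CDKN2B the effects changed by −0.98 (SE 0.15, adjusted p = 1.18e-04) and −0.68 (SE 0.15, adjusted p = 0.00574). CDKN2D went the other way, with effects larger at 24 h by 1.03 (SE 0.21, adjusted p = 0.00149) and 0.65 (SE 0.21, adjusted p = 0.0497). The i-BET151 call of CDKN2D was lost when any 1 of 16 of the 18 libraries was left out and under 4 of 8 other settings (adjusted p of up to 0.134). All 3 called genes belong to the INK4 family. For CDKN1A the changes were −0.62 (−1.28 to 0.04, adjusted p = 0.159) and −0.58 (−1.25 to 0.08, adjusted p = 0.247) and were not called, whereas without replicate 3 both were, at −0.82 (adjusted p = 0.0023) and −0.57 (adjusted p = 0.033). With 1 library left out they were −0.80 to −0.37 and −0.74 to −0.33 and were not called, the smallest without DMSO replicate 3 of 4 h. For CDKN1B they were 0.35 and 0.36 (adjusted p = 0.137 and 0.182), and without replicate 3 0.40 and 0.51 (adjusted p = 0.0331 and 0.0145). With 1 library left out these were 0.25 to 0.49 and 0.28 to 0.50, and both were called without DMSO replicate 3 of 4 h (adjusted p = 0.0277 and 0.0491). Without replicate 3 of every group, 5 of 7 genes were called for either inhibitor, beside 40.6% and 26.3% of all tested genes. CDKN1C (0.21 and 0.18) and CDKN2C (−0.22 and 0.41) were not called.

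In the vehicle libraries alone, 1 of the 7 genes differed between 24 and 4 h, beside 0.0386% of all tested genes (7 of 18154). This was CDKN2B, which lay at 58.2 ± 3.57 CPM (SD, n = 3) at 4 h and 32.6 ± 0.258 at 24 h (log2 fold change −0.83, SE 0.11, adjusted p = 0.00614), lower in 9 of 9 pairs. It had the smallest p of all 18154 genes in this comparison. The call was lost when any 1 of the 3 DMSO libraries of 24 h or DMSO replicate 3 of 4 h was left out (adjusted p = 0.0556 to 0.0842) and in a fit of the DMSO libraries alone (adjusted p = 0.207), while the log2 fold change stayed between −0.88 and −0.80 when libraries were left out. The other 6 genes had log2 fold changes of −0.09 (CDKN1A) to 0.19 (CDKN2A) and adjusted p of 0.844 to 0.992. As the level of CDKN2B with DMSO was lower at 24 h, its level with i-BET151 at 24 h (42.2 ± 1.33 CPM) lay below that with DMSO at 4 h, although it was called higher than DMSO of its own time point.

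The genes that act around the inhibitors were followed in 5 lists, and 30.8%, 16.2%, 41.7% and 33.8% of all tested genes again form the background of i-BET858 and i-BET151 at 4 h and of i-BET858 and i-BET151 at 24 h. Values given beside gene names are log2 fold changes with i-BET858 against DMSO. Of the kinases, G1 cyclins and RB proteins on which the inhibitors act, 11 of 12 were tested, and 3 were higher and 3 lower with i-BET858 at 4 h and 2 higher and 5 lower at 24 h. The E-type cyclins CCNE2 (1.66) and CCNE1 (1.22), partners of CDK2, rose at 4 h, and CCNE1 fell at 24 h (−0.51). CDK6, the INK4 target kinase, fell at both times (−1.09 and −1.25), CDK4 fell at 24 h (−0.54) and the RB relative RBL1 fell at 4 h (−1.18), whereas the D-type cyclin CCND3 rose at both times (0.68 and 1.05) and RB1 rose at 24 h (0.39). With i-BET151 the counts were 3 higher and 3 lower at 4 h and 2 and 2 at 24 h. The median log2 fold change of the list was −0.07 and −0.39 with i-BET858 at 4 and 24 h, beside 0.02 and −0.01 over all tested genes.

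Of 16 E2F target genes, which RB represses, 2 were higher and 3 lower with i-BET858 at 4 h, and 0 higher and 8 lower at 24 h, with a median of −0.30 at 24 h. E2F2 fell at both times (−1.23 and −2.06), as did MCM2 (−0.57 and −0.57), and MCM5, like MCM2 a replication helicase gene, fell at 24 h (−1.10). CDC6 and PCNA, a licensing factor and the sliding clamp of replication, rose at 4 h (0.62 and 0.61). With i-BET151, 1 was higher and 2 lower at 4 h and 0 higher and 5 lower at 24 h.

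Of 14 transcription factors known to act on promoters of CDK inhibitor genes, 2 were higher and 7 lower with i-BET858 at 4 h and 4 higher and 4 lower at 24 h. KLF4 and FOXO3, both activators of CDK inhibitor genes, rose (2.02 and 0.83 at 4 h), while SP1 (−1.60) and SP3 (−0.85), which bind GC boxes, fell at 4 h and lay at −0.14 and 0.00 at 24 h. SMAD3, which carries TGFβ signals, and TP73 fell at 24 h (−1.69 and −1.88). The i-BET858 libraries of SMAD3 already lay below DMSO at 4 h (63.8 to 67.9 CPM against 98.1 to 109). Those of the less abundant TP73 did so too (2.58 to 2.96 CPM against 3.25 to 5.11). With i-BET151 the counts were 2 and 3 at 4 h and 1 and 3 at 24 h. Among 12 genes of ubiquitin ligases that degrade CIP/KIP proteins, 2 were higher and 2 lower at 4 h and 4 higher and 2 lower at 24 h with i-BET858. SKP2, which recognises p27, fell (−0.38 and −0.82) as did CUL4A (−0.40 and −0.93), and SKP1 (0.85 and 0.93) rose. RNF123, a ligase of p27, rose at 24 h (1.03) and CKS1B, the SKP2 cofactor, rose slightly at 4 h (0.40). With i-BET151, 1 was higher and 0 lower at 4 h and 3 higher and 2 lower at 24 h.

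Of 11 polycomb and demethylase genes that act at the INK4 locus, 1 was higher and 4 lower with i-BET858 at 4 h and 1 higher and 3 lower at 24 h. BMI1, a repressor of CDKN2A, fell at 4 h (−1.37) and lay at 0.01 at 24 h, and the H3K27 demethylase gene KDM6B fell at 4 h (−0.76). EZH2, the H3K27 methyltransferase, rose at 4 h (0.64), and at 24 h CBX7 (−1.08) and RNF2 (−0.64) fell and CBX8 rose (0.47). With i-BET151 the counts were 0 and 2 at 4 h and 1 and 2 at 24 h.

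Within 50 kb of one of the 7 genes, 40 other genes are annotated on GRCh38, of which 39 were in the count tables. With i-BET858, 3 of the 15 tested were called at 4 h beside 30.8% of all tested genes, and 7 of the 14 tested at 24 h (2 higher and 5 lower) beside 41.7%. With i-BET151, 2 were called at 4 h beside 16.2% and 6 at 24 h (1 higher and 5 lower) beside 33.8%, so that the shares lay near the background. APOLD1, 3548 bases from CDKN1B on the same strand, rose with both inhibitors at 4 h (1.45 and 1.35, adjusted p = 0.0057 and 0.0159), where CDKN1B was not called. Beside CDKN1C, PHLDA2, an imprinted gene of the same region, rose with i-BET858 at 4 h (0.81) and fell at 24 h (−0.82), and SLC22A18 fell at 24 h (−0.97). FAF1 lies 478 bases from CDKN2C on the other strand and fell at 24 h (−0.63 with i-BET858 and −0.42 with i-BET151). S1PR5, a sphingosine phosphate receptor gene 48529 bases from CDKN2D, fell with i-BET858 at 24 h (−3.13, adjusted p = 6.79e-06) while CDKN2D rose. ATG4D, 13042 bases from CDKN2D, was higher with i-BET858 at 24 h (0.60, adjusted p = 0.00778), as was CREBL2, 40390 bases from CDKN1B (0.88, adjusted p = 7.14e-04). CDKN2A and CDKN2B are themselves neighbours, and at 24 h the former was called lower and the latter higher with either inhibitor.

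To find the transcripts whose pattern over the 18 libraries was most like each of the 7 genes, log2 CPM were correlated over 12423 genes (Pearson's r, a description, since libraries of a group share their treatment). Closest to CDKN1A were NPTX1, HES6 and TRIM36 (r = 0.98 each). For CDKN2B, HNRNPAB (0.97) and KLF10 (0.97) are given, the latter a TGFβ-induced repressor, and for CDKN2D they were STIM2 (0.99), OSTF1 (0.99) and DHRS2 (0.98). CDKN2A was closest to DPM3 (0.98), EIF3I (0.98) and EBPL (0.98), and CDKN1C to ANXA2 (0.94), ZFAND5 (0.94) and TMSB10 (0.93). The closest to CDKN1B were ATG4C (0.94), ZBTB44 (0.93) and FAM200C (0.92), and the lowest values were those of ENSG00000280120 (0.82), DONSON (0.78) and NCAPD3 (0.78), the closest to CDKN2C. These rankings changed without replicate 3, where ATG4C, ZBTB44 and FAM200C stood at ranks 237, 38 and 640 for CDKN1B, TRIM36 at rank 61 for CDKN1A and DONSON at rank 66 for CDKN2C, and the other genes named here at ranks 1 to 37.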

How the data were processed

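Poly-A enriched RNA of 18 OVCAR-3 libraries was sequenced in paired ends. The deposited files are 2 tables, 1 per time point, of raw gene counts, which the authors made with the STAR aligner. The submitters' processing notes name STAR, DESeq2 and GRCh38, while the strand column and the annotation release are not given in the sources used here. Column names give inhibitor and replicate, and the time was taken from the table that holds the column. Of 58825 identifiers, 58472 (99.4%) were matched to GENCODE 44 for symbols and positions.

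Counts were tested with edgeR 4.0.16 in R 4.3.3 (filterByExpr, TMM factors of 0.893 to 1.09, quasi-likelihood test, Benjamini-Hochberg adjustment over all genes tested). The 9 libraries of a time point entered 1 fit of group means, and all 18 entered 1 fit for the change of an effect with time and for DMSO over time. A gene was called at an adjusted p under 0.05. Confidence intervals are 95% and unadjusted. CPM were computed from the counts with TMM factors over all 18 libraries, and log2 CPM for likeness with a prior count of 2. The fits were also run on simulated counts with known changes. These counts were drawn independently for each library, without a difference between replicate numbers, and cannot test how replicate 3 affects the fits. Alternatives were DESeq2 1.42.0, other scalings, filters and call rules, fits of other sets of libraries, the replicate number as a block, and leaving out libraries.

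The fits reported did not pair the libraries. Only the alternative with the replicate number as a block took libraries of the same number together. The deviations of same-numbered libraries from their group means correlated at 0.141 to 0.365 at 4 h and 0.161 to 0.352 at 24 h. Libraries of different numbers correlated at −0.341 to 0.233 and −0.329 to 0.326, so that the check sets replicate 3 apart from replicates 1 and 2 more than it tells these 2 apart.

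The 7 genes and the lists were chosen with earlier results of these data known. Named of each list were up to 2 genes with the largest rise and up to 2 with the largest fall among those called with i-BET858 at 4 or 24 h. For likeness the 3 genes with the highest Pearson's r were named, over genes whose average log2 CPM reached 1. A gene list and a gene of the likeness ranking are not reported here. Promoter sequences were taken from RefSeq (GRCh38.p14).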

Additional observations from a re-analysis of the deposited data

Results flagged for a closer look

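For 3 of the 7 genes, the effect of an inhibitor differed between 4 and 24 h by the interaction test, and these are listed for that reason. For i-BET858, the log2 change of the effect from 4 to 24 h was −1.31 for CDKN2A, −0.98 for CDKN2B and 1.03 for CDKN2D. For i-BET151 it was −1.12 for CDKN2A, −0.68 for CDKN2B and 0.65 for CDKN2D, the last of which lay at the threshold (adjusted p = 0.0497 in edgeR's quasi-likelihood test). Both tests share the DMSO libraries. Groups of 3 libraries were too small for a search for single outlying libraries.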

How the results depend on the processing

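The counts of CDK inhibitor genes called against DMSO with 1 library at a time left out were 5 to 5 with i-BET858 and 3 to 4 with i-BET151 at 4 h, and 5 to 5 and 4 to 5 at 24 h, and without replicate 3 of every group the 24 h counts were 6 and 7, beside 60.7% and 54.2% of all genes called in place of 41.7% and 33.8%. With a fold change of at least 2, the 24 h counts were 3 and 2 in place of 5 and 5. The number called between the inhibitors at 4 h, 1 in the fit reported, was 3 with DESeq2, without the filter, in 1 fit of 18 libraries and without replicate 3, 4 with the replicate block, 0 with a fold change of at least 2 or with only the groups compared, and 0 to 2 with 1 library left out. Of all genes, DESeq2 called 5.21%, the fit without the filter 1.6%, that of 18 libraries 3.02%, that without replicate 3 2.29%, the block 9.63% and only the groups compared 0%, against 0.971% in the fit reported. At 24 h it was 2 and became 1 with DESeq2 size factors, total library size or 1 fit of 18 libraries, 3 with DESeq2 or without the filter, 4 with the replicate block, 5 without replicate 3, 0 with a fold change of at least 2 or only the groups compared, and 0 to 3 with 1 library left out. The shares of all genes were then 0.0758% with DESeq2 size factors, 0.326% with total library size, 0.248% in 1 fit of 18 libraries, 2.81% with DESeq2, 1.08% without the filter, 4.37% with the block, 7.29% without replicate 3 and 0.00608% with only the groups compared, against 0.21%. The number of changed effects over time was 3 and became 5 without replicate 3 for either inhibitor, beside 40.6% (i-BET858) and 26.3% (i-BET151) of all genes in place of 27.2% and 13.8%. At 2-fold it was 2 for i-BET858 and 1 for i-BET151, and it was 3 to 4 (i-BET858) and 2 to 3 (i-BET151) when 1 library was left out. For DMSO over time it was 1 and became 0 at 2-fold and with only the groups compared, and 0 to 1 with a library left out. The replicate block changed no call other than those given in the report. Causes of these differences were not tested.

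No called value changed direction. Of values that were not called, total library size reversed CDKN1B with i-BET858 at 24 h (−0.0297), and the inhibitor differences of CDKN2C (−0.063) and CDKN2D (−0.0841) at 4 h and CDKN2A at 24 h (−0.000833). Without replicate 3 or with 1 library left out, values ranged from −0.135 to 0.0432 for CDKN2C with i-BET858 at 4 h, from −0.0200 to 0.128 for CDKN2C (4 h), −0.112 to 0.183 for CDKN2D (4 h) and −0.0503 to 0.19 for CDKN2A (24 h) between the inhibitors, and from −0.0927 to 0.431 for CDKN1C in the change of the i-BET151 effect. Over time with DMSO they ranged from −0.342 to 0.0684 for CDKN1A, −0.0277 to 0.186 for CDKN1B, −0.185 to 0.0418 for CDKN1C and −0.0692 to 0.324 for CDKN2A. Total library size moved the median of all genes with i-BET858 at 4 h from 0.02 to −0.14. Of 546 results of the 7 genes under other settings than leaving out 1 library, 6 reversed, 12 lost their call and 26 gained one, and of 756 with 1 library left out the numbers were 16, 44 and 5. A single cell line and 3 libraries per group limit all comparisons.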
